A study of Mus musculus with 12 samples.

Results

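The genes described here encode proteins of the spliceosome and regulators of splicing. They were taken by name as every gene whose symbol starts with Srsf, Hnrnp, Snrp, Sf3a, Sf3b, Prpf or U2af. This gave 64 of the 12516 gene symbols listed. Snrpn, an imprinted gene that the rule leaves out, was not among the symbols listed. The rule uses names only and no measured value, but the set was chosen with earlier results of these data known. RNA was sequenced from germ cells of 12 single female mouse embryos at embryonic day 13.5, of C57BL/6 background and Gulo-/- genotype. Gulo encodes an enzyme of vitamin C synthesis, so every embryo, controls included, depended on vitamin C from the mother's diet. Mothers of 6 embryos received vitamin C at a physiological level (supplied), and mothers of the other 6 had it removed for the first 2 weeks of gestation (withdrawn). The germ cells had been sorted as positive for Oct4, and the comparison asks how withdrawal of the vitamin from the mother bears on the embryonic germline.

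Splicing removes introns from newly made RNA. The spliceosome is assembled anew on each intron from small nuclear ribonucleoproteins (snRNPs), which are RNA and protein particles named after their RNAs, together with many further proteins. The U1 particle pairs with the start of the intron, U2AF and the SF3 complexes of the U2 particle recognise its end and its branch point, and the tri-snRNP with the PRPF proteins then forms the catalytic centre. SR proteins mostly favour the use of nearby splice sites, and hnRNPs bind RNA widely and often oppose it. In germ cells, splicing of many transcripts changes as mitosis gives way to meiosis.

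Values are the authors' normalized log2 expression, so a difference of 1 would be a 2-fold difference, and sequencing depth is unknown. A change below is the mean of withdrawn embryos less that of supplied ones, fitted over all genes with limma, and a gene is called where its Benjamini-Hochberg adjusted p lies under 0.05. A rise or fall of RNA in the sorted pool may reflect a different share of cells of a type or a different level per cell, and these cannot be told apart. Correlations between libraries ran from 0.986 to 0.999. Of 8 germ cell markers, 7 lay above the median gene. The mean of all 8 ran from 11.28 to 11.43 in supplied and from 11.17 to 11.38 in withdrawn embryos. Pou5f1, among these markers, encodes Oct4, so its high level is not independent of the sort. Of these 8 markers, 3 were called higher (Pou5f1 0.45, Sox2 0.35 and Dppa3 0.23) and 3 lower (Mael -0.77, Dazl -0.43 and Ddx4 -0.34), and 5 of these changes exceed in size those of all 64 members. Of 15 tested markers of ovarian supporting cells, 1 lay above the median gene, and all 15 had negative changes, 2 of them called lower. The mean of all 16 listed markers of this type, including Lgr5, which the low-value filter dropped, ran from 5.27 to 5.47 in supplied and from 5.20 to 5.36 in withdrawn embryos. The mean of 6 mesenchyme markers, all 6 with negative changes, ran from 4.97 to 5.42 and from 4.96 to 5.11. The 5 endothelial markers averaged 5.73 to 6.00 and 5.78 to 5.89, and 1 of them, Pecam1, lay above the median gene. Pecam1 had means of 11.18 in supplied and 11.38 in withdrawn embryos and weighs on that average. It is also among the somatic markers averaged for the covariate. Macrophage markers averaged 4.21 to 4.38 and 4.14 to 4.31, and 0 of 7 erythroid markers were listed. Beyond a fit with a somatic marker covariate, given last, the part of these other cell types in the results was not tested.

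RNA of 10 splicing genes was higher and that of 4 was lower after withdrawal. Those higher included Sf3b2, Snrpa1, Hnrnpf, Sf3b5, Snrpd3, Snrpe, Sf3a3, Srsf6 and Srsf3, and the 4 lower were Prpf40b, Hnrnph3, Prpf18 and Srsf12. All changes were small. They ran from -0.31 to 0.32, and 0 of 64 reached 0.5 in size, against 107 of 12432 genes tested. The called members are 21.9% of the 64, where 14% of all tested genes were called (limma, n = 6 + 6). By direction, 15.6% of members were higher beside 6.22% of all genes, and 6.25% were lower beside 7.75%. The change was above 0 for 48 members and below 0 for 16, with a median of 0.10 beside -0.0093 over all genes.

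**Figure D1:**
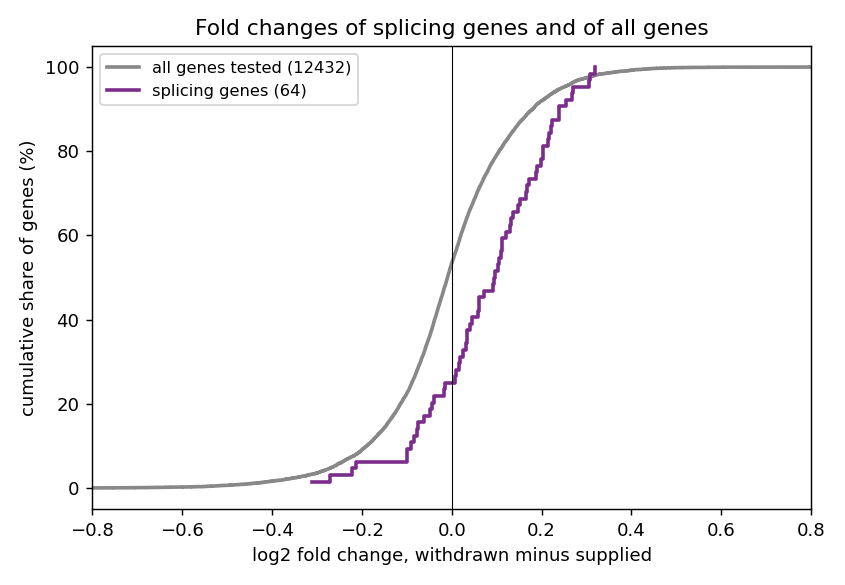
Cumulative share of genes (y axis, percent) by log2 fold change, withdrawn minus supplied (x axis), for the 64 splicing genes (purple) and all 12432 genes tested (grey). The purple curve crosses 0 at a share of 16 of 64 genes and has its median at 0.10, and the grey curve has its median at -0.0093.

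The members were well expressed, since 63 of 64 had a mean above that of the median gene on the deposited scale. Whether that scale is set per length is not given in the sources used here. Abundant genes were called higher more often than all genes. In a fit restricted to genes with a mean of at least 8, a choice made after seeing the data, 11.3% of all genes were higher and 8.1% lower, and 15 of the 63 members kept there were higher and 4 lower. Scaling also moved the balance of directions. With each library centred on its median, 16 members were higher and 2 lower, and over all genes the counts went from 773 higher and 964 lower to 928 higher and 771 lower. With quantile normalization, the median change of the members was 0.04 with 41 of 64 positive, and 7 were called higher and 3 lower. These 10 are 15.6% of the members, beside 12.5% of all genes called in that fit (6% higher and 6.47% lower). All 64 passed the filter on low values.

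Groups did not overlap for 6 members, or 9.38%, where 4.49% of all genes showed no overlap. These were Hnrnpf, Snrpa1, Snrpd3, Hnrnpc and Hnrnpm, higher in every withdrawn embryo than in any supplied one, and Hnrnph3, lower in every one. By direction, 2.15% of all genes were separated upwards and 2.34% downwards. Hnrnpc and Hnrnpm were not called by limma. An exact two-sided permutation test per gene, with 924 arrangements of the embryos, has a smallest possible p of 0.00216, which needs full separation. Over all genes it called 267 higher and 291 lower, the same counts as genes without overlap. Its call of these same 6 members restates their separation and is no further support.

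The embryos differed in how far they carried the pattern. Of the 64 members, between 44 and 47 lay above their supplied mean in each withdrawn embryo. In supplied embryos that number ran from 16 in replicate 5 to 44 in replicate 1. Averaged over the members, supplied embryos lay between -0.06 and 0.04 of the supplied mean and withdrawn embryos between 0.03 and 0.11, so the ranges overlapped. Withdrawn replicate 5 was the highest of all 12 embryos for 21 members, and supplied replicate 5 was the lowest for 19. Over all listed genes, withdrawn replicate 5 had the lowest library median (8.072) and supplied replicate 5 the highest (8.136). How often other genes had their extremes in these embryos was not counted. Both embryos carry the number 4 in their titles, where each group uses the numbers 1 to 4 and the labels do not explain them. Leaving out the 4 embryos with that number ended every call among the members (0 by limma), and 49 of all genes were then called. In that fit 17 members and 1963 of all 12431 genes had an unadjusted p under 0.05.

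**Figure D2:**
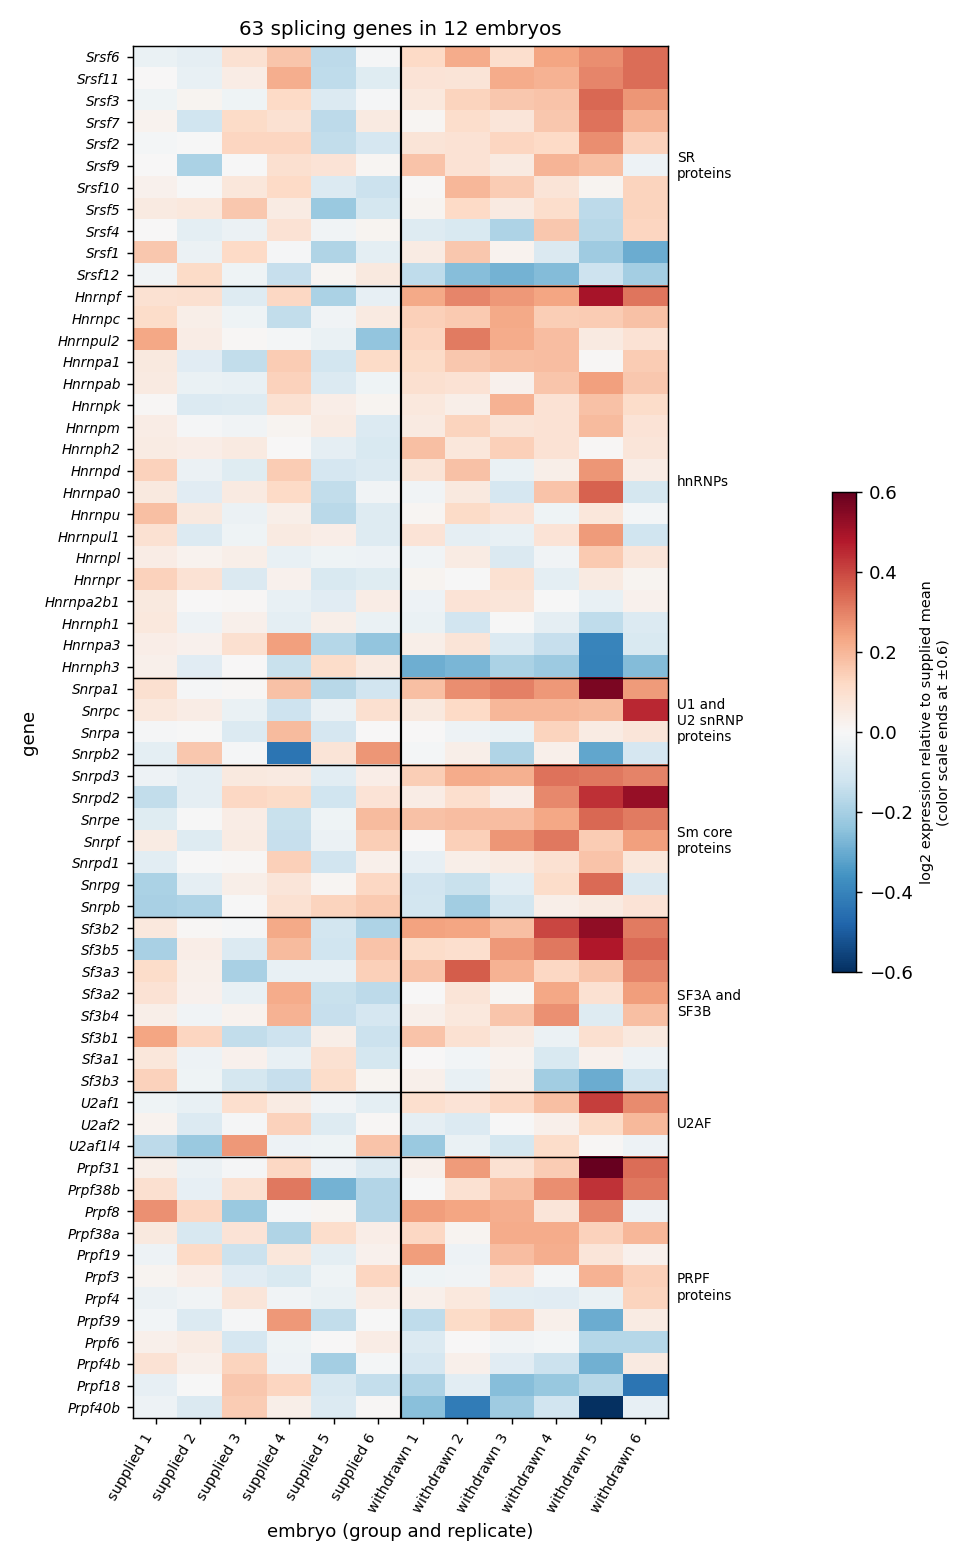
Log2 expression of 63 of the splicing genes (rows, by role) in each of the 12 embryos (columns), relative to the mean of the supplied embryos, with red above and blue below it and colours ending at ±0.6. Red fills most of the withdrawn columns, deepest in withdrawn replicate 5, and supplied replicate 5 holds the most rows with the lowest value.

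Promoters are shown for 4 of the members with the smallest p, 3 that rose and 1 that fell, so that their start regions can be compared. RefSeq promoters (250 bases before to 50 after the listed start, build GRCm38.p6, which is not the authors' mm9) matched 56 of 64 members by symbol, with 74 promoters between them. The other 8 were not matched, among them Hnrnpul2, Sf3b4, Sf3b5, Snrpb, Snrpd1 and U2af2. Hnrnpf has several listed starts, and the data do not tell which was used, so none of its promoters is shown. Each sequence runs 5′ to 3′ in the sense of transcription, and capitals mark the motifs searched, on both strands. The Sf3b2 promoter (chr19:5295406-5295705, minus strand, the first of 2 listed starts) holds an ETS core CCGGAAG at -13 from the start and 1 CCAAT box. That of Snrpa1 (chr7:66060086-66060385, plus strand) holds 1 GGGCGG box, read on the other strand as CCGCCC. In Snrpd3 (chr10:75517792-75518091, plus strand) 1 GGGCGG box overlaps the first of 2 CCAAT boxes. In Hnrnph3 (chr10:63023800-63024099, minus strand), a member that fell, 1 GGGCGG box and 1 TCTCGCGA motif were found.
Sf3b2: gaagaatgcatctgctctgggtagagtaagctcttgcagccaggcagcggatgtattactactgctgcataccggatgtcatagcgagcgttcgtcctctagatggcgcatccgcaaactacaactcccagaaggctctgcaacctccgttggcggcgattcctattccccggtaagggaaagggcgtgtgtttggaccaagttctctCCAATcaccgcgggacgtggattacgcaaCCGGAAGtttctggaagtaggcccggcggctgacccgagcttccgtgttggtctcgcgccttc
Snrpa1: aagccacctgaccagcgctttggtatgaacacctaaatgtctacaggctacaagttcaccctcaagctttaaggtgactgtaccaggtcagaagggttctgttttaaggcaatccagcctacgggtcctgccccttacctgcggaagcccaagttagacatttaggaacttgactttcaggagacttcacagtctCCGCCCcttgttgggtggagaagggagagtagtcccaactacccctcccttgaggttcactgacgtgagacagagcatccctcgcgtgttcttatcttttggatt
Snrpd3: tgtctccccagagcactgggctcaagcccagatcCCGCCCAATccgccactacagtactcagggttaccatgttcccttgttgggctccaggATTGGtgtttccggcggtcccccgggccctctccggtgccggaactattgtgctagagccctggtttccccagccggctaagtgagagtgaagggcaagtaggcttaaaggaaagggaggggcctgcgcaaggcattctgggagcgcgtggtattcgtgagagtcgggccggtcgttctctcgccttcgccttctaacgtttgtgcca
Hnrnph3: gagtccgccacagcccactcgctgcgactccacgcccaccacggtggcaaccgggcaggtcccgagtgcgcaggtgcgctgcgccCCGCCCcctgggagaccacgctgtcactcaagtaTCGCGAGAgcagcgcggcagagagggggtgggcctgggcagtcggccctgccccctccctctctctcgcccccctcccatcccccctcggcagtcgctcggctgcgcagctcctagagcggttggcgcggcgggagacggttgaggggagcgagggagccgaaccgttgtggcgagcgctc

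The ETS core, the site bound by ETS family factors, was in 24 of 74 member promoters (32.4%), from 19 of the 56 genes. It was in 17.3% of the 11350 promoters of genes tested here and in 8.86% of all 32851 in the table. TCTCGCGA, a motif of some housekeeping promoters, was in 6.76% of member promoters, 2.2% of those of tested genes and 0.995% of all. CCAAT was in 50% beside 38.2% and 37.4%, and the E-box CACGTG in 14.9% beside 10.2% and 7.15%. GGGCGG, which Sp and KLF factors bind, was in 66.2%, close to the 64.5% of tested genes and above the 35.7% of all. TATAAA was in 8.11% beside 6.7% and 13.6%, AAGATGGC, the YY1 motif, in 4.05% beside 4.27% and 2.75%, and the NRF1 motif, a palindrome of 10 bases, in 1.35% beside 2.17% and 0.971%. Median GC content was 60.5% in member promoters, 61.3% in those of tested genes and 52.7% in all. These shares describe letters in a window, and promoters of 1 gene overlap, so they are not independent.

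Components of the U1 and U2 snRNPs come first in assembly. Snrpa1 encodes the U2 A-prime protein, which binds U2 RNA together with the product of Snrpb2. Its lowest, median and highest values were 9.57, 9.74 and 9.92 in supplied and 9.92, 10.01 and 10.31 in withdrawn embryos. Every withdrawn embryo lay above every supplied one, by little at the closest pair, and withdrawn replicate 5 was the highest. The change was 0.31 (SE 0.07, adjusted p = 0.011), or 1.24-fold higher. Snrpb2 stood at 9.22 ± 0.24 in supplied and 9.13 ± 0.14 in withdrawn embryos (mean ± SD, n = 6 each) and was not called (change -0.09, 95% interval -0.29 to 0.11). Of the U1 proteins, Snrpc (the C protein, which helps U1 hold the 5′ splice site) had a change of 0.20 and narrowly missed (SE 0.07, adjusted p = 0.0601). Snrpa (the A protein, which binds a stem-loop of U1 RNA) had a change of 0.03, with an interval of -0.10 to 0.16. The value of Snrpa1 minus that of Snrpa in the same embryo was larger by 0.28 on average after withdrawal, with no overlap between groups. For Snrpa1 minus Snrpb2, its partner, the groups overlapped. An annotated exon of the predicted gene Gm45213 shares 148 bases with Snrpa1 on the same strand, and how reads there were assigned is not given in the sources used here.

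The Sm core is a ring of proteins that surrounds the RNA of most spliceosomal snRNPs, and all 7 of its genes were measured. Of these, 2 were higher (28.6%, beside 6.22% of all genes) and 0 lower (7.75% of all genes), 6 of 7 changes were positive, and the median change was 0.19. Snrpd3 ran through 10.79, 10.86 and 10.91 in supplied and 10.998, 11.11 and 11.18 in withdrawn embryos (lowest, median, highest), and the groups did not overlap. It rose by 0.25 (SE 0.06, adjusted p = 0.00875), 1.19-fold. Snrpe had values of 9.95, 10.07 and 10.27 in supplied and 10.26, 10.29 and 10.43 in withdrawn embryos. All withdrawn embryos were above the supplied mean, and 1 supplied embryo reached into their range. Its change was 0.24 (SE 0.07, adjusted p = 0.0203). Snrpd2 (0.24, SE 0.09, adjusted p = 0.0668) and Snrpf (0.19, SE 0.07, adjusted p = 0.0602) had changes of like size and were not called. Snrpd1, Snrpg and Snrpb had changes of 0.06 (interval -0.07 to 0.19), 0.01 (-0.16 to 0.18) and -0.04 (-0.20 to 0.11). The ring takes 1 copy of each protein, and the value of Snrpd3 minus that of Snrpb in the same embryo was larger by 0.30 on average in withdrawn embryos, again without overlap of the groups. Exons of Gucd1 and Ccdc38 overlap Snrpd3 by 113 and Snrpf by 567 bases on the opposite strand.

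SF3A and SF3B are the parts of the U2 snRNP that hold it at the branch point. Of their 8 genes, 3 were higher (37.5%) and 0 lower, beside 6.22% and 7.75% of all genes, with a median of 0.11. Sf3b2 had the largest change of all members. Its values were 12.86, 13.04 and 13.27 in supplied and 13.23, 13.32 and 13.58 in withdrawn embryos, in the same order as above. The overlap was slight, with the highest supplied embryo just above the lowest withdrawn one, and its change was 0.32 (SE 0.07, adjusted p = 0.00801), 1.25-fold higher. Sf3b5, a small subunit of SF3B, ran through 9.06, 9.23 and 9.44 in supplied embryos and 9.35, 9.54 and 9.73 in withdrawn ones, with overlap, and changed by 0.27 (SE 0.08, adjusted p = 0.0312). Sf3a3, a subunit of SF3A, ran through 10.33, 10.52 and 10.67 in supplied embryos and 10.65, 10.71 and 10.88 in withdrawn ones and changed by 0.22 (SE 0.07, adjusted p = 0.0342), again with the groups touching.

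The remaining subunits were not called. Sf3b1, which binds around the branch point and is mutated in blood disorders, stood at 12.27 ± 0.16 in supplied and 12.35 ± 0.07 in withdrawn embryos (mean ± SD, n = 6 each), a difference of 0.07 with an interval of -0.07 to 0.22. Sf3a1 was at -0.02 (-0.13 to 0.10), Sf3a2 at 0.11 (-0.04 to 0.27) and Sf3b4 at 0.11 (-0.05 to 0.26). Sf3b3 was the lowest of the group at -0.10 (-0.24 to 0.04). A further subunit, Sf3b6, is listed under its older symbol 0610009D07Rik, outside the naming rule, with a change of 0.20 (adjusted p = 0.0781).

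Of the 3 genes for U2AF, 0 were called by limma or by the exact test. An unadjusted limma p under 0.05 was found for 1 of them, and for 3754 of all 12432 genes. U2af1 encodes the small subunit, which reads the AG at the end of the intron. It ran through 9.94, 9.98 and 10.10 in supplied and 10.08, 10.15 and 10.42 in withdrawn embryos, with all 6 withdrawn embryos above the supplied mean and a small overlap, and missed the threshold at 0.20 (SE 0.07, adjusted p = 0.0518). U2af2, the large subunit that binds the pyrimidine tract, had a change of 0.03 with an interval of -0.10 to 0.17. The paralogue U2af1l4 had -0.05 (-0.22 to 0.12).

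The PRPF genes are named after yeast mutants in RNA processing and act at several steps. Prpf40b and Prpf18 were lower. Prpf40b is related to a yeast U1 snRNP protein. It ran through 9.42, 9.50 and 9.66 in supplied and 8.70, 9.28 and 9.46 in withdrawn embryos. The withdrawn group was wide, with replicate 5 far below the rest, and the groups overlapped. Its change was -0.31 (SE 0.10, adjusted p = 0.036). Prpf18, a factor of the second catalytic step, had values of 8.94, 9.05 and 9.24 in supplied embryos and 8.64, 8.88 and 9.02 in withdrawn ones and fell by 0.22 (SE 0.07, adjusted p = 0.0483), close to the threshold.

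Prpf31, which is needed to form the tri-snRNP, had a change of 0.27 that just missed (SE 0.09, adjusted p = 0.0537). Its withdrawn embryos ran from 9.58 to 10.30 around a median of 9.75, so 1 embryo lay far above the others. Prpf8, the scaffold of the catalytic centre, had 0.17 (SE 0.08, adjusted p = 0.144). Prpf19, a ubiquitin ligase of the activated spliceosome, had 0.12 (-0.02 to 0.26). Prpf4b, a kinase of tri-snRNP assembly, had -0.08 (-0.23 to 0.06). The other PRPF genes lay between -0.08 (Prpf6) and 0.22 (Prpf38b), with Prpf39 at -0.02, Prpf4 at 0.01, Prpf3 at 0.06 and Prpf38a at 0.15. Exons of 12 members overlap those of another protein-coding gene, among them Prpf39, which shares 317 bases with Fkbp3 on the opposite strand (Fkbp3 was called higher).

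**Figure D3:**
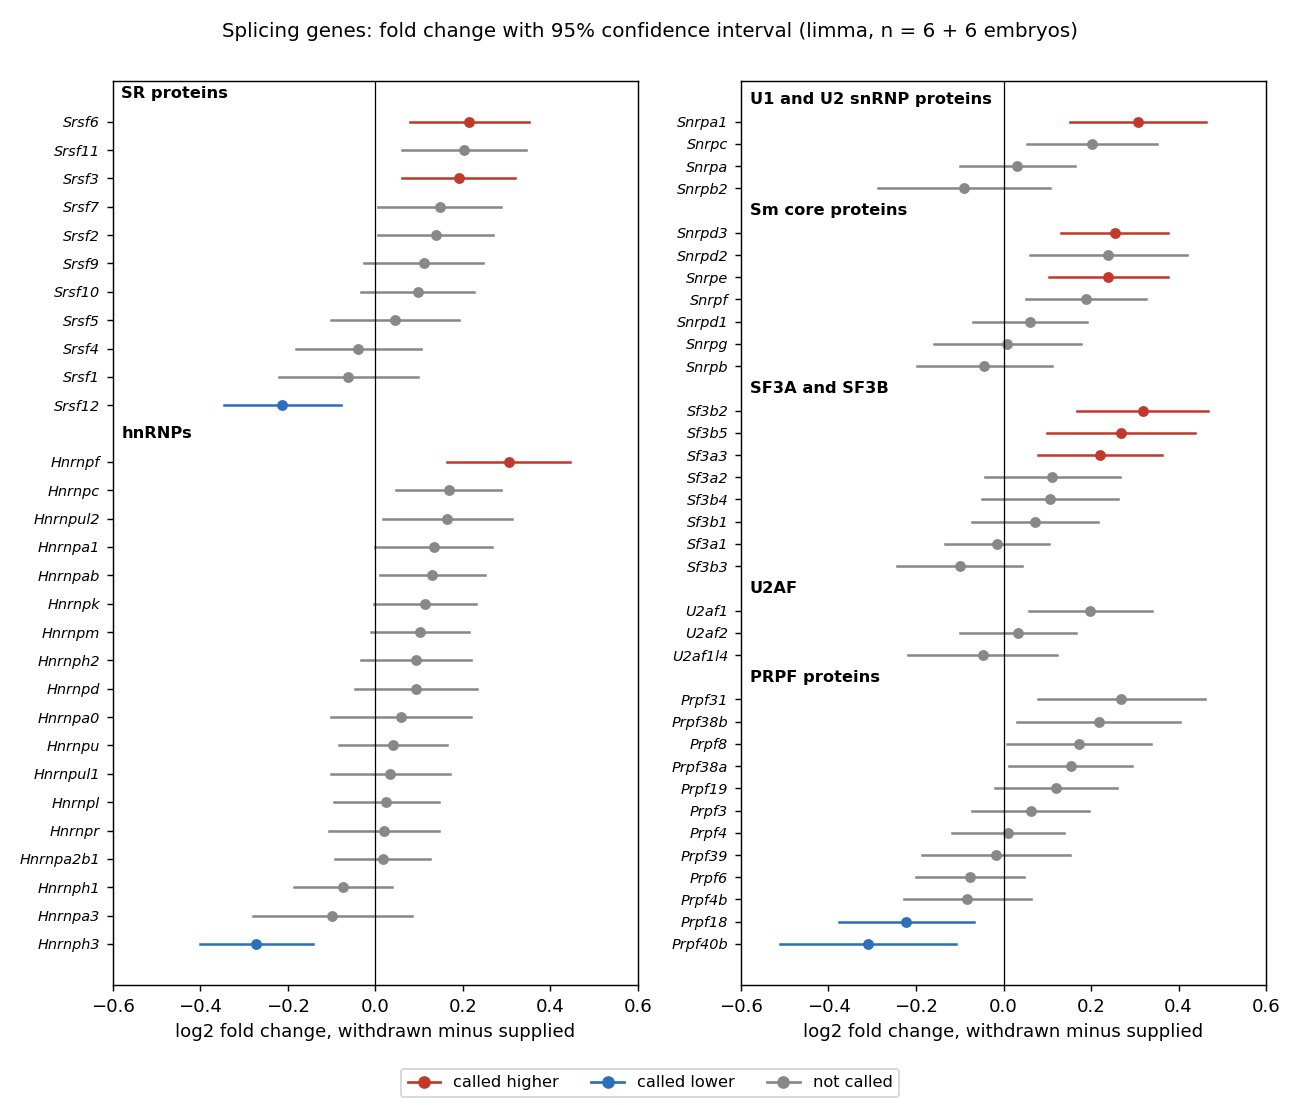
Log2 fold change, withdrawn minus supplied (x axis), of 63 of the splicing genes grouped by role, with points at the limma estimate and lines for its 95% confidence interval (n = 6 + 6 embryos). Red marks 9 genes called higher, blue the 4 called lower and grey the 50 not called, and all estimates lie between -0.31 and 0.32.

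SR proteins bind exons through RNA recognition motifs and recruit the spliceosome. Of 11 genes, 2 were higher (18.2%) and 1 was lower (9.09%), beside 6.22% and 7.75% of all genes, and the median change was 0.11. Srsf6 ran through 11.72, 11.85 and 12.04 in supplied and 11.98, 12.10 and 12.21 in withdrawn embryos. The groups overlapped slightly, and the change was 0.21 (SE 0.07, adjusted p = 0.0318). Srsf3, the smallest SR protein, which also takes part in mRNA export, had values of 11.19, 11.26 and 11.39 in supplied embryos and 11.33, 11.44 and 11.61 in withdrawn ones. It rose by 0.19 (SE 0.06, adjusted p = 0.0438), with overlap and close to the threshold. RefSeq lists a pseudogene of Srsf3, and how reads were divided between copies is not given in the sources used here. Srsf12, which can act as a repressor of splicing, went the other way, with 8.53, 8.66 and 8.79 in supplied and 8.39, 8.44 and 8.55 in withdrawn embryos. The ranges met only at their edges, and the change was -0.21 (SE 0.06, adjusted p = 0.0312). The related Srsf10 had a change of 0.10 (-0.03 to 0.23).

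Srsf11 had a change of 0.20 and missed the threshold by little (SE 0.07, adjusted p = 0.051). Srsf1, a founding member of the family, stood at 12.47 ± 0.12 in supplied and 12.41 ± 0.17 in withdrawn embryos (mean ± SD, n = 6 each), a difference of -0.06 with an interval of -0.22 to 0.10. Srsf2, the marker protein of nuclear speckles, had 0.14 (SE 0.06, adjusted p = 0.15), and Srsf7 had 0.15 (SE 0.07, adjusted p = 0.147). Srsf9, Srsf5 and Srsf4 had 0.11, 0.05 and -0.04, each with an interval that includes 0.

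The hnRNPs, abundant proteins that coat newly made RNA, included the members with the smallest p in each direction. Hnrnpf, whose product binds runs of G, had values of 11.69, 11.91 and 12.01 in supplied and 12.11, 12.16 and 12.38 in withdrawn embryos. The groups did not overlap, and withdrawn replicate 5 was the highest. Its change was 0.31 (SE 0.07, adjusted p = 0.00707), 1.24-fold higher. Hnrnph3, of the same subfamily, ran through 10.75, 10.89 and 10.99 in supplied and 10.48, 10.61 and 10.69 in withdrawn embryos. Every withdrawn embryo was below every supplied one, and the change was -0.27 (SE 0.06, adjusted p = 0.00821), 1.21-fold lower. The difference of Hnrnpf minus Hnrnph3 within an embryo was larger by 0.58 after withdrawal. Its groups had to separate, because both genes were themselves separated, in opposite directions, so the lack of overlap is no further result. Of the other relatives, Hnrnph1 had a change of -0.07 (-0.19 to 0.04) and Hnrnph2 one of 0.09 (-0.03 to 0.22), and neither was called. Pairs of related genes were compared within embryos for 16 pairs, picked partly after their values had been seen, and the groups overlapped for 12 of them. The 4 without overlap each hold a gene whose own groups do not overlap.

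Of all 18 hnRNP genes these 2 were the only ones called (11.1%, beside 14% of all genes), although 15 changes were positive, with a median of 0.08. Hnrnpc, which binds U tracts, ran through 11.74, 11.90 and 12.003 in supplied and 12.04, 12.05 and 12.12 in withdrawn embryos. The groups did not overlap and the withdrawn values were close together, and the change was 0.17 (SE 0.06, adjusted p = 0.0556). Hnrnpm had values of 12.61, 12.70 and 12.75 in supplied embryos and 12.75, 12.78 and 12.88 in withdrawn ones, also apart but by a small margin, and a change of 0.10 (SE 0.05, adjusted p = 0.206). Annotated exons of March2, with a change of -0.19, share 1149 bases with Hnrnpm on the same strand.

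Several of the best known hnRNPs were not called. Hnrnpa2b1 stood at 14.07 ± 0.05 in supplied and 14.09 ± 0.05 in withdrawn embryos (mean ± SD, n = 6 each), with an interval for the difference of -0.09 to 0.13. Hnrnpu, a scaffold protein of the nucleus, had a change of 0.04 (-0.08 to 0.16), and Hnrnpk, which binds runs of C, one of 0.11 (SE 0.06, adjusted p = 0.181). Hnrnpa1, which promotes exon skipping, had 0.13 (SE 0.06, adjusted p = 0.167), but it was the 1 member below the median gene and has near-identical copies in the genome, so its value is uncertain. Hnrnpa3 was at -0.10 (-0.28 to 0.08). Hnrnpul2 and Hnrnpab had 0.16 (SE 0.07, adjusted p = 0.121) and 0.13 (SE 0.06, adjusted p = 0.131). The remaining Hnrnpr, Hnrnpl, Hnrnpul1, Hnrnpa0 and Hnrnpd lay between 0.02 and 0.09. Hnrnpdl, listed under its older symbol Hnrpdl and so outside the naming rule, was called higher by 0.31 (SE 0.09, adjusted p = 0.0204).

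**Figure D4:**
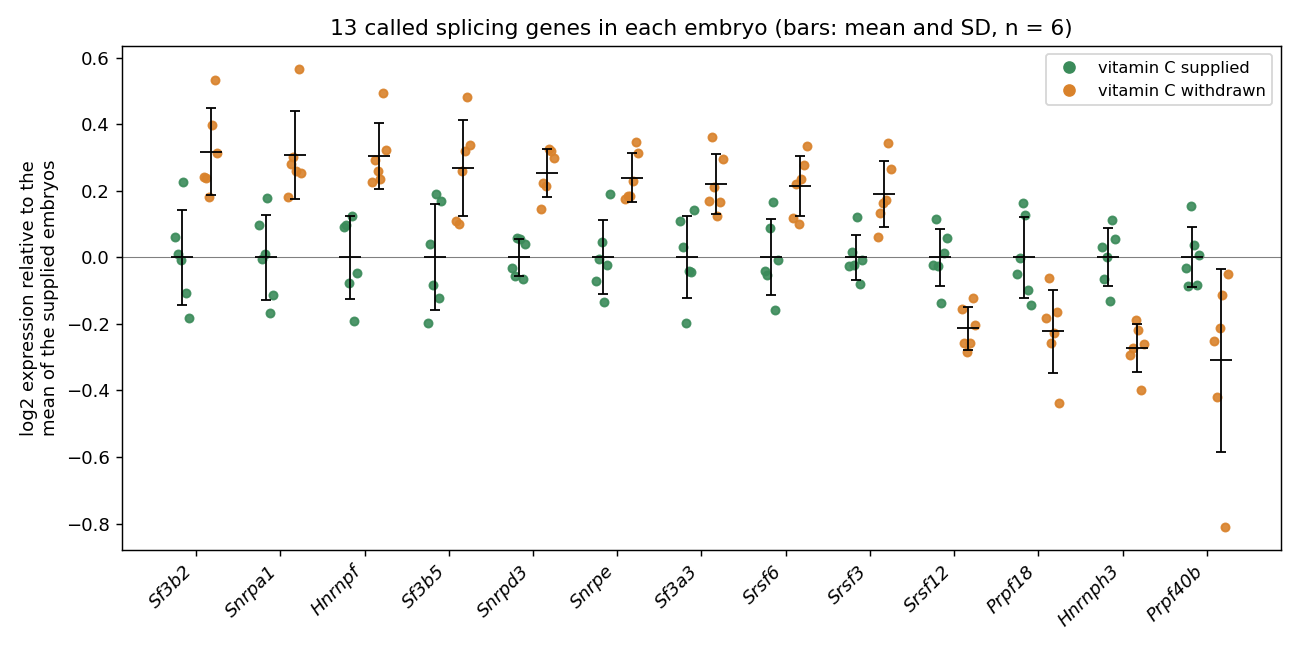
Log2 expression of 13 called splicing genes in each embryo, relative to the mean of the supplied embryos (y axis), with points for embryos (green supplied, orange withdrawn) and bars for the mean and SD (n = 6). For each gene all 6 withdrawn embryos lie on one side of the supplied mean, and for Snrpa1, Hnrnpf, Snrpd3 and Hnrnph3 the points of the 2 groups do not overlap.

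Genes of the pathway that the naming rule leaves out were read from 11 further lists, 153 genes in all. Of these, 17 were higher (11.1%) and 5 lower (3.27%), beside 6.22% and 7.75% of all genes. Their median change was 0.04, and groups did not overlap for 6 (3.92%, beside 4.49% of all genes). With both directions counted together, called genes were 14.4% of the lists beside 14% of all genes. The shares called and without overlap thus lie near those of all genes only when direction is set aside. Without supplied replicate 5, 7 were higher and 1 lower, where 2.94% of all genes were higher and 3.56% lower. Among 13 spliceosomal helicases, the RNA-dependent motors of the cycle, 5 were higher (38.5%) and 0 lower, beside 6.22% and 7.75% of all genes. Aqr, which binds introns, had the largest change at 0.36 (SE 0.08, adjusted p = 0.00676), followed by Dhx8, which releases the finished mRNA, at 0.29 (SE 0.07, adjusted p = 0.0146). Ddx39 had 0.24 (SE 0.06, adjusted p = 0.0163) with no overlap, and Dhx38 and Ddx41 were also higher. Of 14 genes for assembly of the Sm ring, 2 were higher (14.3%, beside 6.22% of all genes). Prmt5, the methyltransferase that modifies Sm proteins, ran through 10.18, 10.39 and 10.52 in supplied and 10.52, 10.66 and 10.90 in withdrawn embryos. Those groups did not overlap, and the change was 0.30 (SE 0.07, adjusted p = 0.0116). Smn1, which loads the ring onto RNA, rose by 0.24 (SE 0.07, adjusted p = 0.0302).

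Among 7 genes with Snrnp symbols, 2 were higher (28.6%, beside 6.22% of all genes) and 0 lower (7.75% of all genes). Those higher were Snrnp27 (0.30, SE 0.07, adjusted p = 0.0133) and Snrnp40 (0.19, SE 0.06, adjusted p = 0.0419). The Prp19 complex and step factors gave 2 higher of 25 (8%, near the 6.22% of all genes). Changes were positive for 23 of them, and for 5794 of all 12432 genes. The 2 called were Txnl4a, a tri-snRNP protein (0.30, SE 0.08, adjusted p = 0.0126), and Snw1 (0.24, SE 0.07, adjusted p = 0.0233, no overlap). Magoh, of the exon junction complex that marks spliced mRNA, rose by 0.37 (SE 0.11, adjusted p = 0.034). It was the 1 higher of 10 in its list (10%, beside 6.22% of all genes). Of 16 SR-related genes and SR kinases, 1 was higher (6.25%, near the 6.22% of all genes). It was Tra2a (0.23, SE 0.07, adjusted p = 0.0247). By limma and by the exact test, 0 of 10 LSm proteins, 0 of 16 branch site and U2 cofactors and 0 of 6 genes of the minor spliceosome were called. In each list 2 had an unadjusted limma p under 0.05, where 3754 of all 12432 genes did.

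Of 30 other splicing regulators, 3 were higher (10%) and 5 lower (16.7%), beside 6.22% and 7.75% of all genes. Ptbp1 and Ptbp2, and likewise Pspc1 and Nono, are related genes that were called in opposite directions. Ptbp1, a repressor of exons outside neurons, had values of 11.03, 11.30 and 11.62 in supplied and 11.61, 11.68 and 11.88 in withdrawn embryos. All withdrawn embryos were above the supplied mean, with the ranges just touching, and the change was 0.37 (SE 0.08, adjusted p = 0.00573). Ptbp2, its paralogue with roles in neurons and male germ cells, ran through 10.10, 10.45 and 10.72 in supplied embryos and 9.69, 10.17 and 10.30 in withdrawn ones. It fell by 0.36 (SE 0.10, adjusted p = 0.0248), with overlap. Esrp1, an epithelial regulator also made in germ cells, rose by 0.33 (SE 0.09, adjusted p = 0.0163), and Pspc1, a paraspeckle protein, by 0.19 (SE 0.06, adjusted p = 0.0437). Mbnl3, of the muscleblind family, ran through 6.77, 7.07 and 7.29 in supplied and 6.33, 6.65 and 6.75 in withdrawn embryos, with no overlap and a change of -0.42 (SE 0.09, adjusted p = 0.00577). Celf2 fell by 0.29 (SE 0.08, adjusted p = 0.0171), Nono by 0.22 (SE 0.07, adjusted p = 0.0282) and Pcbp2 by 0.20 (SE 0.06, adjusted p = 0.0341).

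The calls depended on how embryos were treated. All 14 called members kept their sign in each of 30 alternative fits, as did 48 of all 64 members counted together. Fits that changed only the filter, variance trend, test or threshold, or added the title number as a block, left each change as it was. A sign could not differ there, and the 14 were called for changes large beside their errors, so kept signs are little further support. The 5 with the firmest calls, Hnrnpf, Sf3b2, Hnrnph3, Snrpd3 and Snrpa1, stayed called in 26 or 27 of the 30, and Srsf3 and Prpf18 in 10 and 9. Leaving out supplied replicate 5 left 5 members higher and 1 lower, leaving out withdrawn replicate 6 left 6 and 2, and leaving out withdrawn replicate 1 gave 16 and 3. In that order these are 9.38%, 12.5% and 29.7% of the members, beside 6.5%, 9.59% and 13% of all genes. The count of lower members was also 2 without supplied replicate 2, 3 or 6 or withdrawn replicate 2, 3 or 4. When embryos that share a title number and a diet were averaged, limma called 0 members, beside 2.4% of all 12431 genes. An unadjusted p under 0.05 was then reached by 23 members and by 2755 of all genes. With a covariate that averages the somatic markers limma also called 0 members, and 1 gene of all 12432. There 16 members and 2041 of all genes had an unadjusted p under 0.05. The changes themselves moved less under that covariate, as in Sf3b2 (0.31, adjusted p = 0.127) and Hnrnpf (0.26, adjusted p = 0.144). In the fit without title number 4 they were 0.19 (adjusted p = 0.213) and 0.19 (adjusted p = 0.185). Withdrawn and supplied means of the 14 called members differed in the same direction within each of the 4 title numbers. These members were called from the same embryos, so that is no separate support. The difference was largest within number 4 for 9 of them, within number 2 for 4 and within number 3 for 1. Over all genes the median absolute difference was also largest within number 4, at 0.15, beside 0.07, 0.12 and 0.10 within numbers 1, 2 and 3. Sf3b2 differed by 0.57 within number 4 and by 0.20, 0.19 and 0.17 within numbers 1, 2 and 3, while Sf3a3 differed most within number 2, by 0.41, and by 0.18 within number 4.

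**Figure D5:**
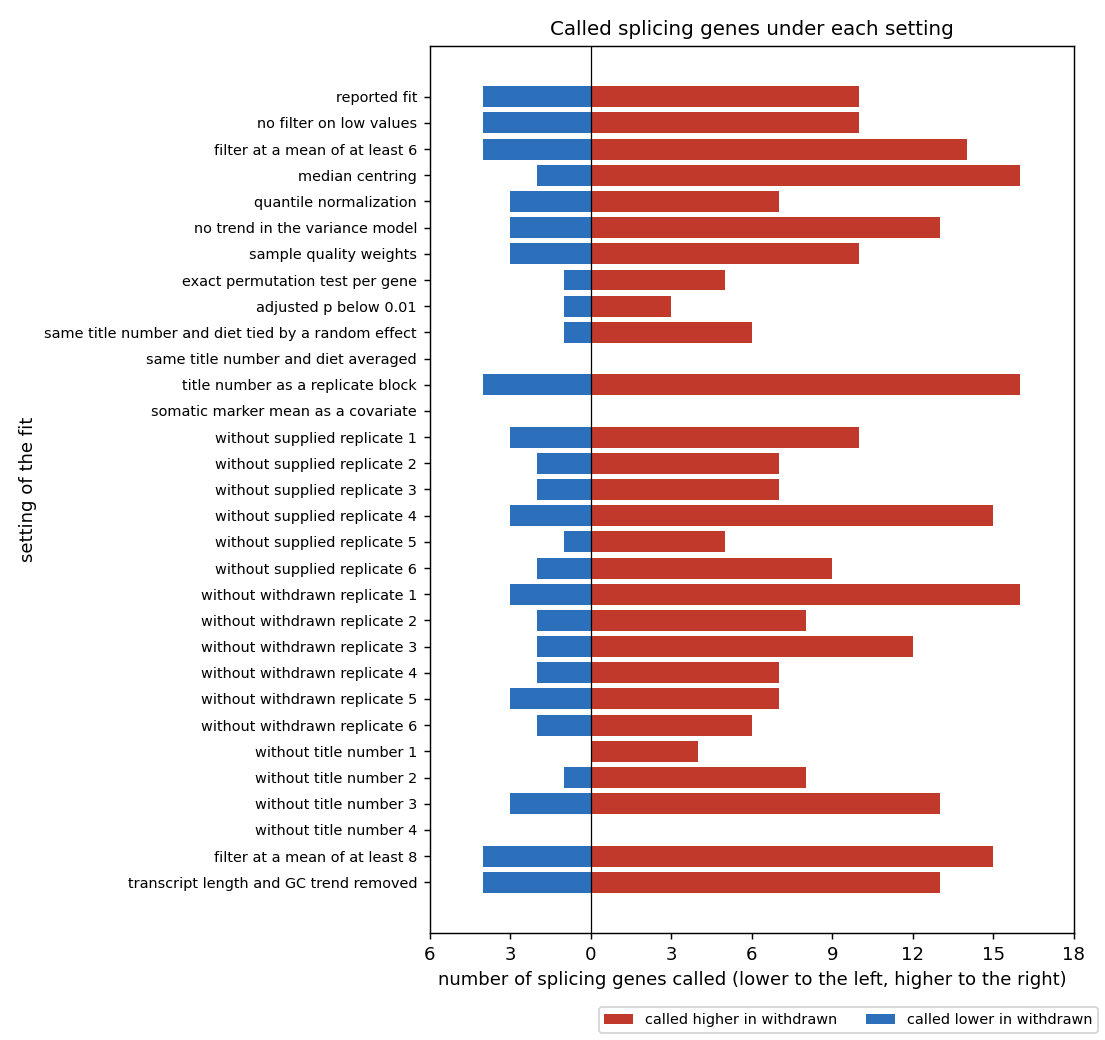
Number of the 64 splicing genes called (x axis, higher in withdrawn to the right in red, lower to the left in blue) in the reported fit and in each of 30 alternative fits (y axis). The reported fit calls 10 and 4, and no gene is called with embryos of a title number and diet averaged, with the somatic covariate or without title number 4.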

How the data were processed

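Germ cell RNA of 12 embryos was analysed from the authors' deposited table of normalized log2 expression values, 1 column per embryo, for 12516 gene symbols. DESeq2 1.10.1, TopHat2 2.0.13, Trim Galore 0.4.0 and FastQC were used, per the submitters' processing notes, with build mm9 and with no role or order given. Not given in the sources used here are the counting tool, its use of strand, the annotation, the filter and the kind of log2 transformation. Whole reads could not be recovered, so depth is unknown and no count test or counting interval is given, and if the scale shrinks poorly covered genes their changes are understated. Per the labels' protocols, 1 ug of total RNA went into a SMART-based library kit.

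Genes with a mean of at least log2 of 10 (3.32) were kept, 12432 in all, with 84 dropped. Withdrawn and supplied embryos were compared with limma 3.58.1 in R 4.3.3 (linear model, variances moderated with a trend on expression, two-sided), and p values were adjusted over all genes kept, with calls at an adjusted p below 0.05. The method was tested on simulated data. The members and gene lists were chosen with earlier results of these data known. Genes named were up to 6 called members in each direction and the largest uncalled change in each class, a set chosen for textbook function, and up to 3 called genes in each direction of each further list. Other members are given to account for the rest, counts cover all 64, a result for 1 gene is not reported here, and further genes were named after their values were seen.

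The labels call the embryos biological replicates, and p values treat them as independent. Whether embryos that share a title number and diet have 1 mother is not stated, and if they do the p values are too small. Such embryos were therefore also averaged or given a shared random effect with statmod 1.5.0. Other alternatives changed the filter, scaling, variance model, weights, threshold and test, added a somatic covariate or the title number as a block, or left out embryos. A filter at a mean of 8 and a correction for transcript length and GC content were chosen after seeing the data. The reference, of build GRCm38, served for names, chromosomes, lengths, GC content, exon overlaps and promoters. Gemin2, Lsm8 and Ptbp3 were matched by older symbols.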

Additional observations from a re-analysis of the deposited data

Results flagged for a closer look

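In 5 of 72 groups checked (36 named members in 2 groups of 6), 1 embryo stood far from the others of its group by Dixon's criterion. Chance gives about 1 in 20, or 3.6 groups. Hnrnpf was at 12.38 in withdrawn replicate 5, where the next embryo was at 12.21. In the same embryo Snrpa1 was at 10.31, above the next at 10.04, and Srsf2 was at 12.12, above the next at 11.97. Snrpc was at 9.01 in withdrawn replicate 6, above the next at 8.76. Snrpa was at 10.79 in supplied replicate 4, above the next at 10.61. Withdrawn replicate 5 holds 3 of the 5 values, and leaving it out gave 7 members higher and 3 lower.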

How the results depend on the processing

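The reported counts were 10 members higher and 4 lower, and 17 and 5 of the other splicing genes. Counts that moved by over 1.5 times were as follows, and the cause was not tested. Median centring gave 16 and 2 members. The exact permutation test gave 5 and 1 (other splicing genes 4 and 2), and an adjusted p below 0.01 gave 3 and 1 (2 and 1). The random effect gave 6 and 1 (9 and 1), averaging 0 and 0 (2 and 0), and the somatic covariate 0 and 0 (0 and 0). Without title number 1 there were 4 and 0 members (6 and 1), without number 2 there were 1 lower, and without number 4 there were 0 and 0 (0 and 0). The share of all genes called was 13.7% with median centring, 4.49% with the exact test and 3.57% at an adjusted p below 0.01. It was 7.13% with the random effect, 2.4% with averaging and 0.00804% with the covariate. Without title number 1, 2 or 4 it was 5.86%, 11.8% or 0.394%. A filter at a mean of 8 left 3 other splicing genes lower. Smaller shifts in the members were 14 and 4 with a filter at a mean of 6, 13 and 3 with no variance trend or without title number 3, 13 and 4 after correction for length and GC content, 10 and 3 with quality weights and 7 and 3 with quantile normalization, which gave 13 and 7 other splicing genes. Leaving out 1 embryo at a time gave 5 to 16 members higher and 1 to 3 lower, and 7 to 20 other splicing genes higher and 1 to 6 lower. The latter were 10 and 2 without supplied replicate 6, 11 and 3 without withdrawn replicate 4 or 5, 9 higher without withdrawn replicate 6 and 3 lower without supplied replicate 2. Over all genes 808 to 2315 were then called. With the title number as a replicate block, 16 members were higher and 4 lower, beside 7.83% and 8.76% of all genes. Deviations of the same number in the 2 groups correlated across genes at 0.27, -0.10, 0.18 and -0.17. Those of different numbers correlated at -0.36 to 0.297. Each deviation rests on 1 or 2 embryos, so these values cannot tell whether the numbers pair the embryos. No named gene reversed its direction while called. Over the 36 named members, 884 alternative values kept their side of the threshold, 149 lost the call and 46 gained it. Depth is unknown, so the number of embryos sets the precision, and the median member had a 95% interval of ± 0.14.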
